A study of Homo sapiens with 6 samples.

Results

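Interferon signaling was examined in Kasumi-1 cells through 39 genes, which are the interferon receptors, the STAT and IRF transcription factors behind them and the genes that interferon induces. The members were given by gene symbol, and the rows of the deposited table were found by their Ensembl identifiers in GENCODE release 29. All 39 were among the 32364 genes of the table. The line Kasumi-1 grew from an acute myeloid leukemia of the M2 subtype and carries a t(8;21) translocation. I13 is an inhibitor of histone deacetylases, the enzymes that remove acetyl groups from histones. There were 3 libraries of control cells, which received the solvent DMSO by the methods, and 3 libraries of cells incubated with 0.5 µM I13. Both groups were the same line and were collected after 48 h. The paper calls its sequencing figures representative of 3 independent experiments, but the labels do not say whether the 3 libraries of a group came from separate cultures. A p-value here sets a difference against the spread between these libraries, which may be technical.

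Type I interferons bind a receptor made of IFNAR1 and IFNAR2, and interferon gamma binds a receptor made of IFNGR1 and IFNGR2. The receptors activate STAT proteins. STAT2 joins IRF9 in a complex that binds the interferon-stimulated response element, a short motif in the promoters of the induced genes, and the response to interferon gamma works through a different STAT site. The induced genes sense viral RNA, block translation and viral replication, or hold viruses at membranes, and in myeloid cells they are a sensitive reading of interferon exposure.

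The response element was looked for in RefSeq promoters of GRCh38.p14, which run from 250 bases before to 50 bases after a start site. Of the 39 members 28 had a promoter there, DDX58 under its newer symbol RIGI. The motif searched was GAAA, any pair of bases and again GAAA, on both strands, so that a copy on the other strand reads TTTC, any pair of bases and TTTC. It was found for 17 of the 28 members (60.7%) and for 1195 of all 27305 genes with a promoter (4.38%). All 17 were among the 22 interferon-stimulated members with a promoter there (77.3%). The motif was found in this window for 0 of the 6 receptors and factors with a promoter, out of 10. IRF7, OASL, IFIT2 and IFITM2 were among the members without a promoter there and were not searched. The sequences below are shown because they belong to members with a different course in the libraries, IFI6 with higher values after I13, IFIT3 with lower values, and ISG15, IFIT1 and IFITM3, whose groups overlapped. They are written 5′ to 3′ on the strand of the gene, the capitals mark the motif, and its first base is given relative to the start site. Where a gene held several copies outside the printed stretch, 1 is shown.
IFI6, first bases at -156, -115 and -93, minus strand, chr1:27672263-27672362: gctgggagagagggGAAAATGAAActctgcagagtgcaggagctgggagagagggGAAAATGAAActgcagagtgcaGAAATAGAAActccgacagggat
IFIT3, first base at -122, plus strand, chr10:89327865-89327894: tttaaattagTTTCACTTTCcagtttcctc
ISG15, first base at -107, plus strand, chr1:1013380-1013409: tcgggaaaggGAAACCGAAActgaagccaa
IFIT1, first base at -103, plus strand, chr10:89392510-89392539: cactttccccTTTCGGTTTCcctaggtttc
IFITM3, first base at -35, minus strand, chr11:320876-320905: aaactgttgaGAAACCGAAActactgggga
IFI6 held 3 copies on its own strand, and the first copy recurred with the bases around it at -115. The copies of IFIT3 and IFIT1 lay on the other strand. In the stretch of ISG15 a further match, with its first base at -113, overlapped the marked one. Its first bases stand there in small letters. The site of a STAT dimer, TTCNNNGAA, was found for 8 of the 28 members (28.6%) and for 9.38% of all genes, and in 4 members (BST2, IFI27, IFITM1 and MX1) it overlapped the response element. These matches are a description of the letters, and binding was not measured.

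**Figure D1:**
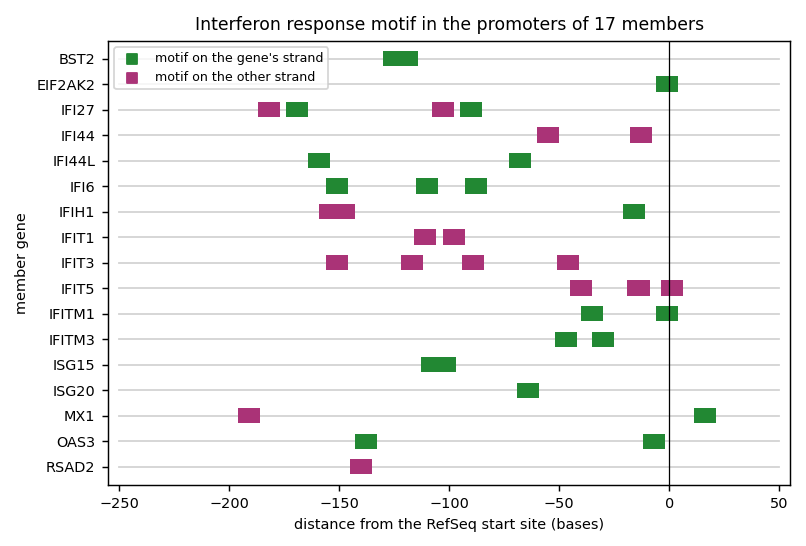
Positions of the interferon response motif in the promoters of the 17 members that held it, with the distance from the RefSeq start site in bases on the horizontal axis and a box for each match, green on the strand of the gene and purple on the other strand. Matches are drawn relative to their own start site, and a gene can have several start sites. The boxes of IFI27 at -187 and -108 are therefore the same site in the genome. So are those of IFI27 at -174 and -95 and those of IFI44 at -60 and -18. The boxes of IFIT3 and of MX1 come from different start sites. Every match but that of MX1 at 11 begins before its start site.

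The values are FPKM, fragment counts scaled by the exon length of the gene and the mapped fragments of its library. This length joins all annotated exons of a gene, 13047 bases for MX2 and 865 for IFI6. Levels can therefore be compared only roughly between genes. The implied depth was between 15281052 and 17221344 fragments per library, and fragments per gene were recovered from the FPKM values. Control replicate 3 and I13 replicate 2 stood apart from the other 4 libraries on the first principal component, which carried 43.3% of the variance, and the labels name no batch. These 2 libraries are called the library pair here. Without them the log2 fold change of 8 of the 30 tested members changed sign and that of 10 more moved by over 1.5 times. The 8 myeloblast markers looked for were all expressed, with means from 1.077 FPKM for CD38 to 11484.6 FPKM for MPO, the myeloperoxidase of primary granules. Of these markers 3 had a log2 fold change above 0 and 5 below 0. CD33 had 11.9, 11.8 and 10.8 FPKM in control and 13.7, 13.1 and 12.7 FPKM in I13 libraries, without overlap (unadjusted p = 0.0166 from limma, adjusted p = 0.89). Of 12 markers of other cell types in the table, COL1A1 and COL1A2 were at 0 and 3 more were under 0.1 FPKM, while EPCAM reached 23.8 FPKM. Their summed level was between 27.8 and 33.8 FPKM in the control and between 29.5 and 32.2 FPKM in the I13 libraries. Among them PECAM1, an adhesion molecule of endothelium that myeloid cells also carry, had 2.45, 2.49 and 2.44 FPKM in control and 1.30, 1.82 and 1.52 FPKM in I13 libraries (adjusted p = 0.58 from limma, 0.0395 by voom). CD3D, of T cells, had 5 or 6 fragments in each control and 2 in each I13 library. CD247, also of T cells, had 120, 143 and 118 fragments in control and 162, 148 and 107 in I13 libraries. CD3E had 1, 3 and 5 fragments in control and 2 in each I13 library. Of the 7 markers of other cell types whose mean reached 0.1 FPKM, 3 had a log2 fold change above 0 and 4 below 0. LILRA4, of plasmacytoid dendritic cells, which make type I interferon, had 1 fragment over the control and 8 over the I13 libraries. The part of these markers in the results was not tested. In bulk libraries, fewer cells with a transcript and less of it per cell cannot be told apart.

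The interferon genes that the deposited values cover were nearly silent in both groups, and the others have no value. Of 21 ligand genes looked for, 8 were in the table, and 7 of these, with IFNB1 and IFNG among them, had 0 fragments in all 6 libraries, which allows up to 3 fragments over the libraries. IFNA21 had 1 fragment, in control replicate 3. The receptors had means from 2.45 to 10.7 FPKM, and the factors from 0.139 FPKM for IRF9 to 10.1 FPKM for IRF3. Many classical induced genes, such as MX1, OAS1, OAS2 and IFI44L, had only a few fragments.

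The groups were set against each other with limma, two-sided, on log2(FPKM + 0.1), in 18726 genes whose mean reached 0.1 FPKM, with Benjamini-Hochberg adjustment over all of them. On this scale the change of low genes is understated. Of the members 30 were tested and 9 were under the minimum. At an adjusted p under 0.05, limma called 0 of the 30 members and 0 of all genes (0%), and voom on the recovered fragments called 0 of 28 members and 6 of 13848 genes (0.0433%). At an unadjusted p under 0.05, limma found 3 of the 30 members (10%), against 5.14% of all genes. Higher after I13 was 1 of them, IFI6 (2.55% of all genes), and lower were 2, IFIT3 and OASL (2.59% of all genes). Voom found 4 of 28 (14.3%, against 5.38% of all genes), which were these 3 and IFIT2. The groups did not overlap for 4 of the 30 (13.3%), IFI6 and RSAD2 above and IFIT3 and OASL below, against 9.52% of all genes. The shares of the members lay above those of all genes but rest on 3 or 4 members. The members were also chosen with earlier results of these data known, so nothing is read from these counts about them as a group. The exact permutation test with 3 against 3 libraries cannot go below p = 0.1, so it was not used for single genes.
The log2 fold change was above 0 for 14 members and below 0 for 16 (53.3%, against 48.2% of all genes), with a median of -0.0017 against 0.0058 over all genes tested. For 14 of the 30 members the 95% interval from limma lay within the fold threshold of 0.58 on either side. The intervals of the other 16 include a change of that size.

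**Figure D2:**
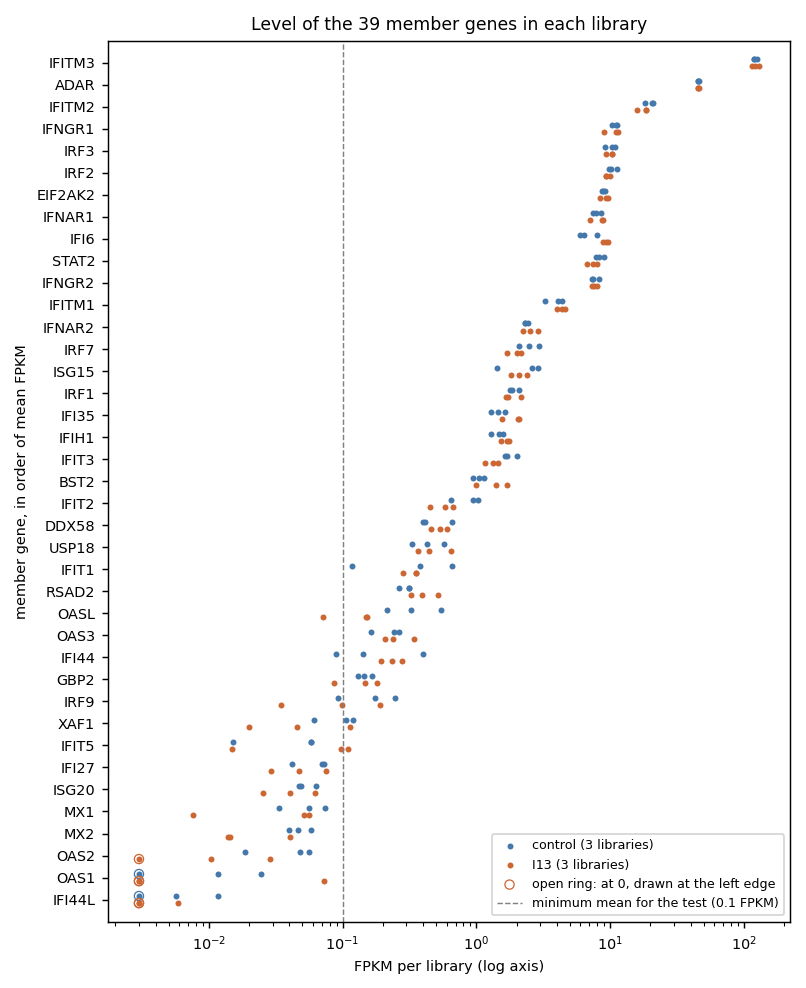
FPKM of the 39 members in each library on a log axis, in order of their mean, with control libraries in blue, I13 libraries in orange and values of 0 as open rings at the left edge. The members span from IFITM3 at 121.8 FPKM to IFI44L at 0.00389 FPKM, and 9 of them lie below the dashed line at 0.1 FPKM that marks the minimum mean for the test.

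The 4 receptor genes were expressed in all libraries and none passed the unadjusted p. The smallest adjusted p among them was 0.995. IFNAR1 had 8.55, 7.82 and 7.49 FPKM in control and 8.91, 7.01 and 8.66 FPKM in I13 libraries, with a log2 fold change of 0.04 and a 95% interval from -0.21 to 0.29. IFNAR2 had 2.32, 2.32 and 2.42 FPKM in control and 2.23, 2.53 and 2.89 FPKM in I13 libraries, with a log2 fold change of 0.11 and an interval from -0.17 to 0.39. The subunits of the type I receptor thus overlapped between the groups.
IFNGR1 had 11.02, 11.3 and 10.4 FPKM in control and 11.5, 9.07 and 11.1 FPKM in I13 libraries, with an interval from -0.28 to 0.18. IFNGR2 had 7.26, 8.19 and 7.50 FPKM in control and 7.32, 7.96 and 7.61 FPKM in I13 libraries, with an interval from -0.17 to 0.17. All 4 intervals lay within the fold threshold of 0.58, and so did those of 4 of the 6 factors. IFNAR1, IFNAR2 and IFNGR2 lie in 1 region of chromosome 21, between 33229901 and 33479348. IFNGR2 and TMEM50B, at 8.55 FPKM, share 380 exon bases on opposite strands.

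The 6 transcription factors all had a log2 fold change below 0, as had 48.2% of all genes tested, and their median was -0.15. None passed the unadjusted p, and the smallest adjusted p was 0.954. Their summed level was between 33.0 and 34.0 FPKM in the control and between 28.8 and 31.9 FPKM in the I13 libraries. IRF2, IRF3 and STAT2 made up most of it. Taken singly, every factor overlapped between the groups, and the sum was not tested. Without the library pair the median was also -0.15, and between the pair it was -0.03. Without the pair, the log2 fold change of IRF1 was above 0, at 0.06.
STAT2 (ENSG00000170581), which carries the type I signal to the nucleus, had 7.78, 8.19 and 9.04 FPKM in control and 6.72, 7.39 and 7.95 FPKM in I13 libraries. I13 replicate 3 lay above control replicate 1, and the log2 fold change was -0.18 (limma, standard error or SE 0.09, unadjusted p = 0.0825). Without I13 replicate 3 limma gave -0.24 (unadjusted p = 0.0472) and without I13 replicate 1 it gave -0.12 (0.251). IRF9, its DNA-binding partner, had 0.0918, 0.246 and 0.175 FPKM in control and 0.0993, 0.190 and 0.0345 FPKM in I13 libraries, from 2 to 16 fragments. IRF9 was the lowest of the factors, its interval ran from -1.54 to 0.72, and 1838 of its exon bases overlap AL136295.5 on the same strand, so fragments could have been left out or divided there.
IRF7, the factor that amplifies interferon production and is itself induced, had 2.92, 2.46 and 2.07 FPKM in control and 1.70, 2.01 and 2.17 FPKM in I13 libraries. Only I13 replicate 3 reached the control range, and the log2 fold change was -0.32 (limma, SE 0.16, unadjusted p = 0.0808). Without control replicate 3 limma gave -0.44 (unadjusted p = 0.0289), without control replicate 1 it gave -0.20 (0.255), without I13 replicate 1 it gave -0.23 (0.229), and between the library pair it was -0.04.
IRF3, which is activated by phosphorylation when viral nucleic acid is sensed, had 9.23, 10.9 and 10.4 FPKM in control and 9.32, 10.3 and 10.3 FPKM in I13 libraries. IRF2, an antagonist of IRF1, had 11.2, 9.78 and 10.2 FPKM in control and 9.27, 10.02 and 9.35 FPKM in I13 libraries, with a log2 fold change of -0.12 (limma, unadjusted p = 0.136). IRF1, an early target of interferon gamma, had 1.79, 1.83 and 2.08 FPKM in control and 1.67, 1.71 and 2.16 FPKM in I13 libraries. The groups overlapped for all 3 genes, and their intervals lay within the fold threshold. IRF3 has 734 exon bases opposite BCL2L12, which was at 22.6 FPKM.

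**Figure D3:**
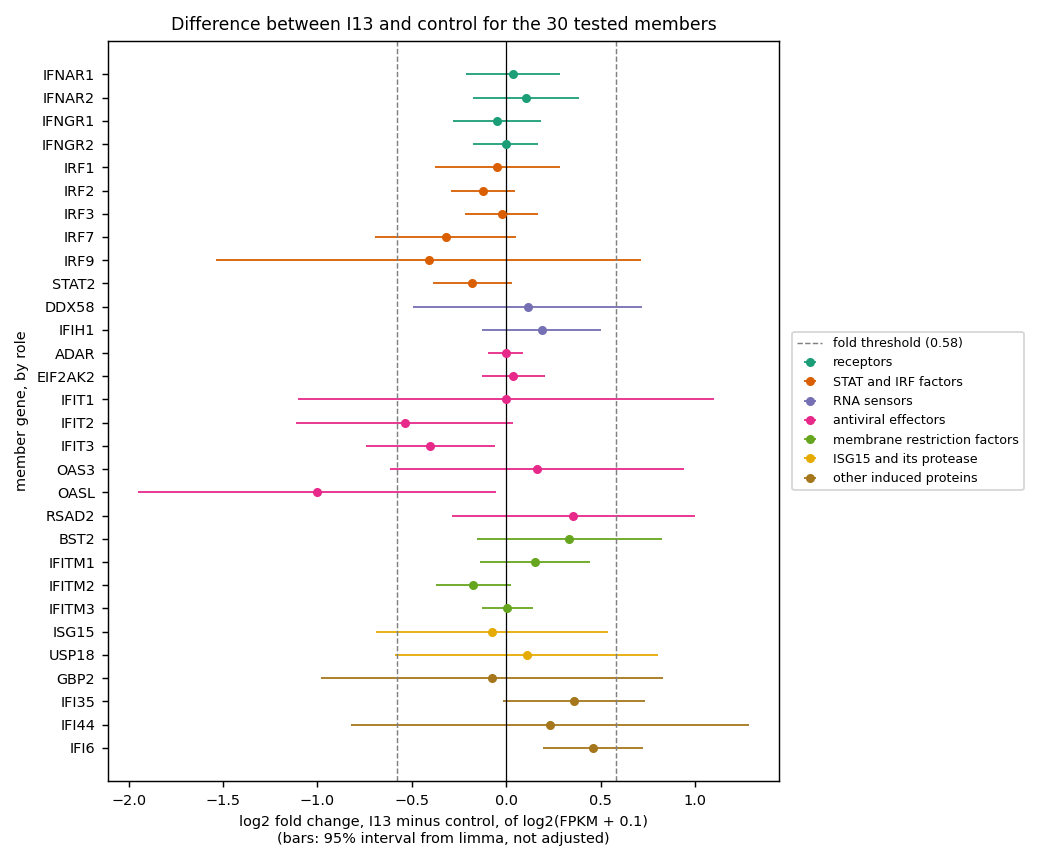
Log2 fold change of I13 against control for the 30 tested members, grouped and coloured by role, with bars for the 95% interval from limma (not adjusted) and dashed lines at the fold threshold of 0.58. The interval of 3 members, IFI6, IFIT3 and OASL, does not cross 0, and all 6 STAT and IRF factors have their estimate below 0.

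The sensors DDX58 (RIG-I) and IFIH1 (MDA5) recognise viral RNA in the cytoplasm. IFIH1 had 1.59, 1.47 and 1.28 FPKM in control and 1.54, 1.68 and 1.75 FPKM in I13 libraries, a log2 fold change of 0.19 (unadjusted p = 0.204 from limma). DDX58 was between 0.402 and 0.654 FPKM over the libraries, with a log2 fold change of 0.11. Both sets of values overlapped.

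The IFIT proteins bind viral RNA and inhibit translation, and IFIT2, IFIT3, IFIT1 and IFIT5 lie in this order on chromosome 10 between 89283694 and 89421001. IFIT3 had 2.00, 1.70 and 1.62 FPKM in control replicates 1, 2 and 3 and 1.17, 1.45 and 1.34 FPKM in I13 replicates 1, 2 and 3. All I13 libraries were below all control libraries. The mean was 1.77 ± 0.200 FPKM (SD, n = 3) in control and 1.32 ± 0.145 FPKM (SD, n = 3) in I13 cells, a log2 fold change of -0.40 (limma, SE 0.145, unadjusted p = 0.0273, adjusted p = 0.947). This p rose past 0.05 when a library was left out, to 0.0988 for control replicate 1, 0.0503 for control replicate 2, 0.0871 for I13 replicate 1 and 0.0511 for I13 replicate 3. Without the library pair the log2 fold change was -0.53 and between the pair it was -0.15.
IFIT2 had 1.03, 0.938 and 0.648 FPKM in control and 0.582, 0.672 and 0.447 FPKM in I13 libraries, so that I13 replicate 2 lay above control replicate 3. The log2 fold change was -0.54 (limma, SE 0.24, unadjusted p = 0.0629). By voom it was -0.60 (unadjusted p = 0.0232). Without the library pair, which these are, limma gave -0.83 (unadjusted p = 0.023), and between the pair the value was 0.05. Without control replicate 3 alone limma gave -0.72 (unadjusted p = 0.0248). A stretch of 65 exon bases of IFIT2 lies opposite LIPA, which was at 10.2 FPKM, and whether the counting used the strand is not given.
IFIT1 had 0.655, 0.379 and 0.118 FPKM in control and 0.354, 0.351 and 0.284 FPKM in I13 libraries. The control libraries spanned 5.56-fold and the I13 libraries 1.25-fold, and the means, 0.384 ± 0.268 and 0.330 ± 0.0397 FPKM (SD, n = 3), differed by less than the control spread. The interval of its log2 fold change ran from -1.105 to 1.10, which covers the values of IFIT2 and IFIT3, and the difference from them was not tested. Without the library pair the value was -0.53, and between the pair it was 1.05. Over the 6 libraries, Pearson's r was 0.83 between IFIT2 and IFIT3 and 0.914 between IFIT3 and IRF7, pairs chosen after their values were seen and with the libraries and their depth in common, while r of IFIT1 was 0.558 with IFIT2, 0.317 with IFIT3 and 0.529 with IRF7.

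The oligoadenylate synthetases make a messenger that activates RNase L, and OASL is a related protein that enhances RNA sensing. OASL (ENSG00000135114, chromosome 12 from 121019111 to 121039242) had 0.215, 0.547 and 0.326 FPKM in control and 0.0714, 0.153 and 0.149 FPKM in I13 libraries. The lowest control library was above the highest I13 library. The mean was 0.363 ± 0.169 FPKM (SD, n = 3) in control and 0.125 ± 0.0461 FPKM (SD, n = 3) in I13 cells. The log2 fold change of -1.0013 (limma, SE 0.40, unadjusted p = 0.041, adjusted p = 0.947) was the only one among the members past both the unadjusted p and the fold threshold, which 2.38% of all genes passed. It rests on 4 to 33 fragments per library. This p also rose past 0.05 when a library was left out, to 0.162 for control replicate 2, 0.0817 for control replicate 3, 0.11 for I13 replicate 1, 0.0569 for I13 replicate 2 and 0.0578 for I13 replicate 3. It was 0.108 without the library pair. On log2(FPKM + 1) the difference was -0.27. By voom the log2 fold change was -1.44 (unadjusted p = 0.00394, adjusted p = 0.479).
OAS3 had 0.162, 0.240 and 0.263 FPKM in control and 0.236, 0.341 and 0.206 FPKM in I13 libraries, and the groups overlapped. Its log2 fold change was 0.16 with a 95% interval from -0.61 to 0.94, which leaves a change of either direction possible, and with each library left out the value was between 0.0093 and 0.27. OAS1 and OAS2 were under the minimum and are given with the low genes. The difference between OASL and OAS3 was not tested.

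**Figure D4:**
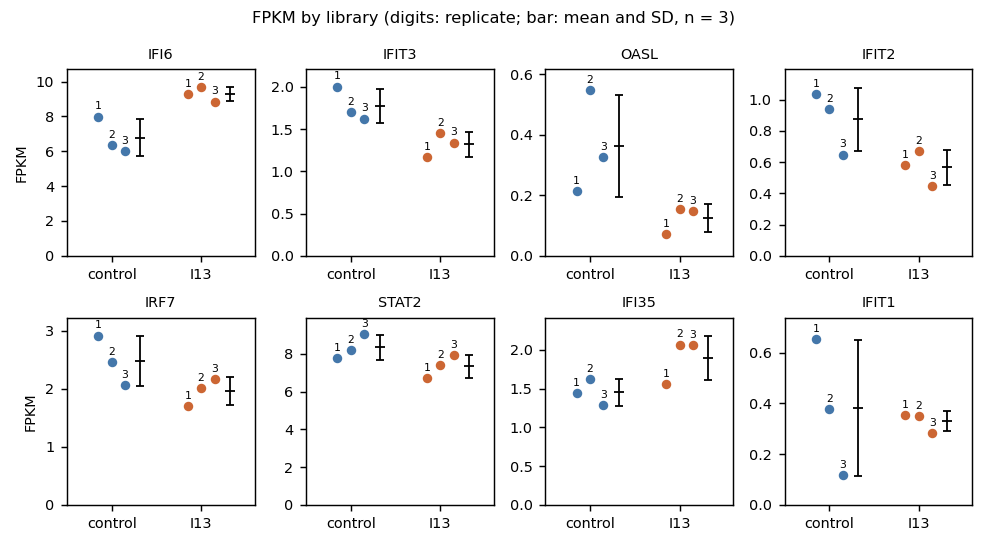
FPKM of 8 members by library, with the replicate number above each point and the mean and SD (n = 3) as a bar beside each group. IFI6 is higher and IFIT3 and OASL are lower in every I13 library, the other 5 genes overlap, and the control values of IFIT1 run from 0.118 to 0.655 FPKM.

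The remaining effectors tested were ADAR, EIF2AK2 and RSAD2. ADAR, which edits adenosine to inosine in double-stranded RNA, had 45.3, 45.5 and 46.3 FPKM in control and 45.6, 45.1 and 46.1 FPKM in I13 libraries. The 95% interval of its log2 fold change ran from -0.10 to 0.09. EIF2AK2, the kinase PKR that halts translation, had 9.16, 8.66 and 8.80 FPKM in control and 9.60, 8.42 and 9.35 FPKM in I13 libraries, with an interval from -0.13 to 0.20. ADAR is known to have transcription from constitutive promoters besides its induced form, and the share of each was not measured here.
RSAD2, the radical SAM enzyme viperin, had 0.312, 0.313 and 0.262 FPKM in control and 0.390, 0.521 and 0.325 FPKM in I13 libraries. The groups did not overlap, but the highest control and the lowest I13 library were close, and the log2 fold change of 0.355 had an unadjusted p of 0.2345 from limma (SE 0.27, 21 to 42 fragments). Without I13 replicate 2, the highest library, it was 0.21, without the library pair 0.14 and between the pair 0.78. RSAD2 shares 14 exon bases with CMPK2 on the other strand.

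The IFITM proteins stop enveloped viruses from fusing with cell membranes, and their genes lie together near the end of chromosome 11. IFITM3 was the member with the highest level, with 119.9, 118.8 and 125.9 FPKM in control and 115.4, 130.6 and 120.2 FPKM in I13 libraries. Together with ADAR it held 59.8% of the summed mean FPKM of the members. The interval of its log2 fold change ran from -0.13 to 0.14.
IFITM2 had 20.4, 18.3 and 20.9 FPKM in control and 15.8, 18.5 and 18.6 FPKM in I13 libraries, a log2 fold change of -0.175 (limma, unadjusted p = 0.0751). Without control replicate 2 limma gave -0.23 (unadjusted p = 0.0408) and without I13 replicate 1 it gave -0.099 (0.24). IFITM1 had 3.28, 4.37 and 4.08 FPKM in control and 4.01, 4.38 and 4.61 FPKM in I13 libraries, and its log2 fold change was 0.15 (limma, unadjusted p = 0.253). The groups of both genes overlapped. IFITM1 and IFITM2 share 351 exon bases on the same strand and resemble IFITM3, so the share of fragments that each received is uncertain.
BST2, or tetherin, which holds budding virus at the cell surface, had 1.04, 0.937 and 1.13 FPKM in control and 1.68, 1.39 and 0.994 FPKM in I13 libraries. I13 replicates 1 and 2 were above the controls and I13 replicate 3 was among them. The log2 fold change was 0.33 (limma, SE 0.21, unadjusted p = 0.152), with 17 to 30 fragments per library. Without I13 replicate 3 limma gave 0.53 (unadjusted p = 0.0235) and without I13 replicate 1 it gave 0.17 (0.442).

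ISG15 is a ubiquitin-like modifier and among the genes most strongly induced by interferon, and USP18 removes it from proteins. ISG15 had 1.42, 2.60 and 2.88 FPKM in control and 2.40, 2.10 and 1.81 FPKM in I13 libraries. All I13 values lay within the control range, and the interval of the log2 fold change ran from -0.69 to 0.54. USP18 was between 0.327 and 0.648 FPKM over the libraries, from 12 to 23 fragments. Its log2 fold change was 0.11, and -0.09 without the library pair. UBE2L6, the conjugating enzyme of ISG15 and no member, was higher after I13, with 13.1, 12.9 and 14.9 FPKM in control and 16.3, 15.6 and 18.7 FPKM in I13 libraries. The groups did not overlap, the log2 fold change was 0.31 (limma, SE 0.09, unadjusted p = 0.011, adjusted p = 0.875), and it was 0.43 without the library pair and 0.07 between the pair.

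IFI6 encodes a small mitochondrial and endoplasmic reticulum protein that is strongly induced by type I interferon. The gene (ENSG00000126709) sits on chromosome 1 between 27666061 and 27672218 of GRCh38, minus strand. It measured 7.99, 6.33 and 6.00 FPKM in control replicates 1, 2 and 3 and 9.29, 9.70 and 8.85 FPKM in I13 replicates 1, 2 and 3, from 86 to 140 fragments. The lowest I13 library exceeded the highest control library, control replicate 1. The mean was 6.77 ± 1.06 FPKM (SD, n = 3) in control and 9.28 ± 0.425 FPKM (SD, n = 3) in I13 cells, a log2 fold change of 0.46 (limma, SE 0.11, unadjusted p = 0.00451, adjusted p = 0.74). IFI6 kept an unadjusted p under 0.05 with each library left out in turn, with p-values up to 0.019. Without the library pair limma gave 0.35 (unadjusted p = 0.0486), and between the pair the log2 fold change was 0.68. The estimate was below the fold threshold of 0.58 with all libraries and was 0.5817 without control replicate 1.

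The other members of mixed or less known function did not move with IFI6 in all libraries. IFI35, a protein of the interferon response that pairs with NMI, had 1.44, 1.62 and 1.28 FPKM in control and 1.56, 2.07 and 2.06 FPKM in I13 libraries. I13 replicate 1 lay within the control range, and the log2 fold change was 0.36 (limma, SE 0.16, unadjusted p = 0.0591). Without I13 replicate 1 limma gave 0.48 (unadjusted p = 0.0201), without the library pair 0.21, and between the pair the value was 0.65. IFI44, a cytoplasmic antiviral protein, had 0.142, 0.400 and 0.0889 FPKM in control and 0.277, 0.235 and 0.193 FPKM in I13 libraries. These values rest on 3 to 14 fragments, and the controls spanned 4.51-fold, wider than the I13 libraries. GBP2, a guanylate-binding protein, was between 0.0860 and 0.180 FPKM in the 6 libraries. Its log2 fold change was -0.07, and 0.08 without the library pair.

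Under the minimum of 0.1 FPKM were 9 interferon-stimulated members, with between 0 and 13 fragments per library. MX2, a dynamin-like protein that blocks nuclear import of retroviruses, had 9, 13 and 10 fragments in control and 3, 3 and 8 in I13 libraries. Summed per group these were 32 and 14, and the depth-corrected ratio of I13 to control was 0.465 (95% interval 0.229 to 0.897). Scaled to depth, control replicate 1 and I13 replicate 3 were at the same level, 0.0401 FPKM. The other ratios had intervals that included 1. MX1, the related block to influenza virus, had 24 and 16 fragments (ratio 0.709, interval 0.352 to 1.39).
XAF1, a proapoptotic protein, had 32 and 19 fragments, and ISG20, an RNA exonuclease, had 20 and 15. IFI27 had 13 and 10, IFIT5 had 9 and 14, and OAS2 had 13 and 4. OAS1 had 3 and 6 fragments, all 6 in I13 replicate 2, and IFI44L had 3 and 1. The exact intervals cover counting error only and not the spread between libraries. At this depth a difference in these genes was not detectable unless it was large.

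The other genes of the pathway were taken from lists written from general knowledge. These lists were also chosen with earlier results of these data known, so nothing is read from their counts about the pathway. Among kinases, other STAT and IRF factors and negative regulators, 0 genes were higher and 2 lower at an unadjusted p under 0.05 of 11 tested, with a median log2 fold change of -0.04. SOCS3, the feedback inhibitor of cytokine receptors, had 1.61, 1.77 and 2.05 FPKM in control and 1.19, 1.36 and 1.29 FPKM in I13 libraries, without overlap (log2 fold change -0.46, limma, SE 0.14, unadjusted p = 0.0121, adjusted p = 0.875).
IRF5, a factor downstream of Toll-like receptors, had 16.5, 16.5 and 17.1 FPKM in control and 13.4, 15.7 and 13.8 FPKM in I13 libraries, again without overlap (log2 fold change -0.23, limma, SE 0.07, unadjusted p = 0.0142, adjusted p = 0.875). Of 11 nucleic acid sensing genes tested, 0 were higher and 1 was lower. This was TMEM173, or STING, the adaptor of the DNA sensing pathway, with 15.9, 16.0 and 16.7 FPKM in control and 13.8, 14.4 and 14.2 FPKM in I13 libraries. The log2 fold change was -0.195 (limma, SE 0.05, unadjusted p = 0.00604, adjusted p = 0.805), and it was -0.19 without the library pair and -0.20 between the pair.
Among 34 other interferon-stimulated genes tested, UBE2L6 was higher and 0 were lower, with a median of -0.05. Of 10 genes typical of interferon gamma tested, 0 were higher and 1 was lower, with a median of -0.10. This was ICAM1, the adhesion molecule of leukocytes and endothelium, with 3.62, 3.24 and 4.40 FPKM in control and 2.58, 3.43 and 2.60 FPKM in I13 libraries, where I13 replicate 2 overlapped the controls (log2 fold change -0.38, limma, SE 0.16, unadjusted p = 0.0465, adjusted p = 0.947). Over these 4 lists of other pathway genes limma found 5 of 66 (7.58%) at the unadjusted p, 1 higher and 4 lower, against the 5.14% of all genes given above (2.55% higher and 2.59% lower). Voom found 9 of 65 (13.8%, against 5.38% of all genes), 2 higher and 7 lower. Besides the 5 genes these were SAMD9L (unadjusted p = 0.0492 by voom) higher and DDX60L (0.0104), LGALS3BP (0.0252) and IRF8 (0.0267) lower, named here after their values were seen.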

How the data were processed

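Libraries were made with a TruSeq Stranded mRNA kit and sequenced on an Illumina instrument. The authors deposited FPKM per gene and library. The submitters' processing notes name hg38, Trimmomatic, HISAT2, Cufflinks and HTSeq without their roles, and neither the annotation nor the strand setting of the counting is given. FPKM were used as deposited. With exon lengths from GENCODE release 29 (GRCh38, the build of the notes), 25769 of 27002 genes (95.4%) gave fragments that were whole to within 0.01 in each of the 6 libraries, and the other genes were recovered from a near length or a common step, except 4. The depth sets the precision, and exact intervals of fragment ratios are at 95%.

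Groups were compared on log2(FPKM + 0.1) by limma 3.58.1 (R 4.3.3), with a variance trend and no block, for genes whose mean was 0.1 FPKM or more. The thresholds, 0.05 for a corrected p and 0.58 for the log2 fold change, are those of the methods. Counts at an unadjusted p, alone or with the fold threshold, are also given and depart from the methods. Voom used genes averaging 10 fragments or more. Intervals were computed in Python 3.11.15 with scipy 1.17.1. The script was tested on simulated data. Alternatives were other pseudocounts, filters, scalings and variance models, voom, a replicate block, and libraries left out. The members and lists were chosen with earlier results of these data known. Members with an unadjusted p under 0.05, the receptors and factors tested, the 8 other members with the highest level and the 5 others with the largest change are given in every library, and genes of the pathway lists where the unadjusted p was under 0.05. Other genes are named as context. The replicate numbers of the labels did not pair the libraries.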

Additional observations from a re-analysis of the deposited data

How the results depend on the processing

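At the adjusted p, 0 members were called under every alternative, and at the unadjusted p between 2 and 4 were. The count past both the unadjusted p and the fold threshold, 1, was 0 with a pseudocount of 1 and with a minimum mean of 1 FPKM, which removes OASL, was 2 by voom, and lay between 0 and 2 with each library left out, 2 without control replicate 1 and 0 without control replicate 2 or without I13 replicate 1, 2 or 3. The median log2 fold change of the members, -0.0017, was -0.0246 with no filter, which adds the 9 low members, and between -0.0133 and 0.0253 with each library left out. BST2, IFI35, IFIT2, IFITM2, IRF7 and STAT2 each passed the unadjusted p in 1 of the 6 fits that left out a library. Some members near 0 changed sign. With each library left out, the log2 fold change was between -0.01 and 0.0071 for ADAR, -0.0004 and 0.0936 for EIF2AK2, -0.0634 and 0.6394 for IFI44, -0.0447 and 0.0444 for IFITM3, -0.0272 and 0.1436 for IFNAR1, -0.1162 and 0.0553 for IFNGR1, -0.0398 and 0.0462 for IFNGR2, -0.1586 and 0.0178 for IRF1, -0.0923 and 0.0249 for IRF3, and -0.3744 and 0.1131 for ISG15. Without control replicate 3 and I13 replicate 2 it was 0.1094 for ISG15, 0.0623 for IRF1, 0.0189 for IFNGR1, 0.0151 for ADAR, -0.0677 for IFI44 and -0.0189 for IFITM3, with IFNGR2 at its lowest, -0.0467, and under median scaling it was -0.0018 for IFITM3. The cause of these shifts was not tested. With the replicate block, 3 members passed the unadjusted p, with IFIT2 (limma, unadjusted p = 0.0486) in the place of IFIT3 (0.0644). The numbers name the libraries only. Same-numbered libraries deviated together with correlations of 0.32, -0.379 and -0.297, and not every library correlated best with its own number. Few fragments limit the genes under 0.1 FPKM, OASL, IRF9 and IFI44 most.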
